A study of Mus musculus with 6 samples.

Results

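The genes described here encode the transcription factor SRF and the actin cytoskeleton. They are 40 genes chosen by symbol, namely Srf itself, actins, crosslinkers, focal adhesion and LIM proteins, myosins, tropomyosins, calponins, transgelins and proteins that turn actin filaments over. All 40 matched 1 row each among the 38293 rows of the deposited count table, and all 40 passed the low-count filter that left 14642 genes. RNA was measured in primary cortical neurons of wild-type Swiss-Webster mice, taken at embryonic day 16 and cultured to day 13 in vitro in neurobasal medium with B27. The 3 control libraries came from cultures labelled as having no treatment. The 3 NMDA libraries came from cultures given 50 µM NMDA, an agonist of a class of glutamate receptors, for 10 minutes and then kept in drug-free medium for 50 minutes. The libraries were compared for transcripts that differ an hour after the start of stimulation. The growth protocol shared by all samples also mentions etoposide, with which no library here is labelled. The cultures hold whatever cells the dissected cortex gave, so a level is an average over cell types, and fewer cells of a type cannot be told apart from less RNA per cell. The labels do not say that the 3 libraries of a group came from separate cultures, and the extract protocol speaks of 2 biological replicates. The p-values therefore cover only the spread among these samples, which may be technical. The members were proposed with results of this same contrast known. Their changes are therefore given as a description, with each p-value adjusted over all genes tested and none over the members alone.

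SRF binds a short DNA element, the CArG box, in the promoters of its targets. It works with cofactors of 2 kinds. The ternary complex factors (Elk1, Elk3 and Elk4) are phosphorylated by MAP kinases and serve immediate early genes such as Fos and Egr1. The myocardin-related factors Mrtfa and Mrtfb are held back by monomeric actin and released when actin polymerises, and they serve genes of the cytoskeleton, including the actins and Srf itself. In neurons SRF is known for roles in activity-dependent transcription, neurite growth and cell migration.

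CArG boxes were looked for in the promoters because many members are textbook SRF targets. RefSeq promoter sequences (GRCm38.p6, 250 bases before to 50 bases after a start site) were matched by symbol for 36 of the 40 members. Those not matched were Actb, Tagln, Tgfb1i1 and Tln2. The search used the CArG box consensus, which is CC, then 6 letters that are each A or T, then GG. This pattern reads the same on both strands, so a single pass covers both. A consensus match was found for 7 of the 36 members, or 19.4%, against 488 of 27025 genes (1.81%) in the whole promoter table. The 7 were Srf, Actg1, Vcl, Cnn2, Myl9, Fhl2 and Myl6. Srf has 2 matches, 82 and 62 bases before its start, and only 6 of the 32851 promoter windows of all genes held 2 or more. The windows below show the matches of the members in capitals, 5′ to 3′ in the direction of the gene and ending before the start site. Acta2, whose promoter has 2 stretches that each differ from the consensus by 1 letter, is shown for comparison. With 1 letter off allowed, 13 of the 36 members (36.1%) and 23.8% of all genes matched, so such a match is common. The windows lie at chr17:46556190-46556269 (minus strand) for Srf, chr11:120348551-120348610 (minus) for Actg1, chr14:20929148-20929205 (plus) for Vcl, chr10:79988519-79988578 (plus) for Cnn2 and chr2:156775278-156775337 (plus) for Myl9. Fhl2 has a match at each of 2 start sites, at chr1:43196823-43196882 and chr1:43163962-43164017 (minus). Myl6 is at chr10:128493025-128493084 (minus) and Acta2 at chr19:34255374-34255482 (minus). A match describes these letters only and does not show that SRF was bound.
Srf: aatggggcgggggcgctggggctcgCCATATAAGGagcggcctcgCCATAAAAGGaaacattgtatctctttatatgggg
Actg1: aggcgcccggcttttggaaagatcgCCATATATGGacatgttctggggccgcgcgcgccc
Vcl: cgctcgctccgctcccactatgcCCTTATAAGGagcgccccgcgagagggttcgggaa
Cnn2: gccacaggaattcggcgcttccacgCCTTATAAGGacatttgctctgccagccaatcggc
Myl9: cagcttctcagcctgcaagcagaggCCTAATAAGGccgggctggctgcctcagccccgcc
Fhl2, first start: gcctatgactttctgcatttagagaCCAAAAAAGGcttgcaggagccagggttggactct
Fhl2, second start: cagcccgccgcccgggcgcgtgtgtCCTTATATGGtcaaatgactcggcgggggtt
Myl6: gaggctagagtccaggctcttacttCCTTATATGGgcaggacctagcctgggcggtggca
Acta2, near match: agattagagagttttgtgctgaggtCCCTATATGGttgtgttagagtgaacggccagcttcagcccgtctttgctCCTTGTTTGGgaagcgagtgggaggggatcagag

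Most of the 40 members stood higher after NMDA, by modest factors. Srf and Zyx rose in the edgeR fit with group as its only term, and no member fell; that fit called 0.376% of all genes tested higher and 0.0546% lower at an adjusted p under 0.05. Before adjustment 22 of the 40 had a p under 0.05, in either direction, beside 13.7% of all genes tested. DESeq2 called 5 higher (Srf, Zyx, Actb, Cfl1 and Fscn1) and 0 lower, against 1.08% and 1.14% of the genes it gave an adjusted p. Libraries of the same replicate number deviated together from their group means, so a second edgeR fit took the number as a block and compared NMDA with control within pairs. Within pairs 22 members rose and 2, Flna and Pdlim7, fell, beside 5.65% of all genes higher and 8.35% lower. DESeq2 with the same block called 17 members higher and 2 lower, beside 3.27% and 4.01%. By its Wald test Tpm1, Tagln3, Cnn1, Pdlim5 and Fhl2 did not pass (adjusted p = 0.068, 0.10, 0.26, 0.11 and 0.086). Correction for GC content and gene length in the blocked fit gave 23 and 2, while the calls over all genes went from 828 higher and 1223 lower to 1109 and 940. Because this contrast was known when the members were proposed, nothing is read from these shares. All 3 NMDA libraries lay above all 3 controls for 18 members and below them for 1, beside 8.18% and 11.1% of all genes tested. The median log2 fold change of the members was 0.26, that of all genes tested -0.01, and the members' medians in pairs 1, 2 and 3 were 0.29, 0.30 and 0.28. Total counts ranged from 15417234 to 19183999 per library, and the members together took 0.957% to 1.17% of a library.

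**Figure D1:**
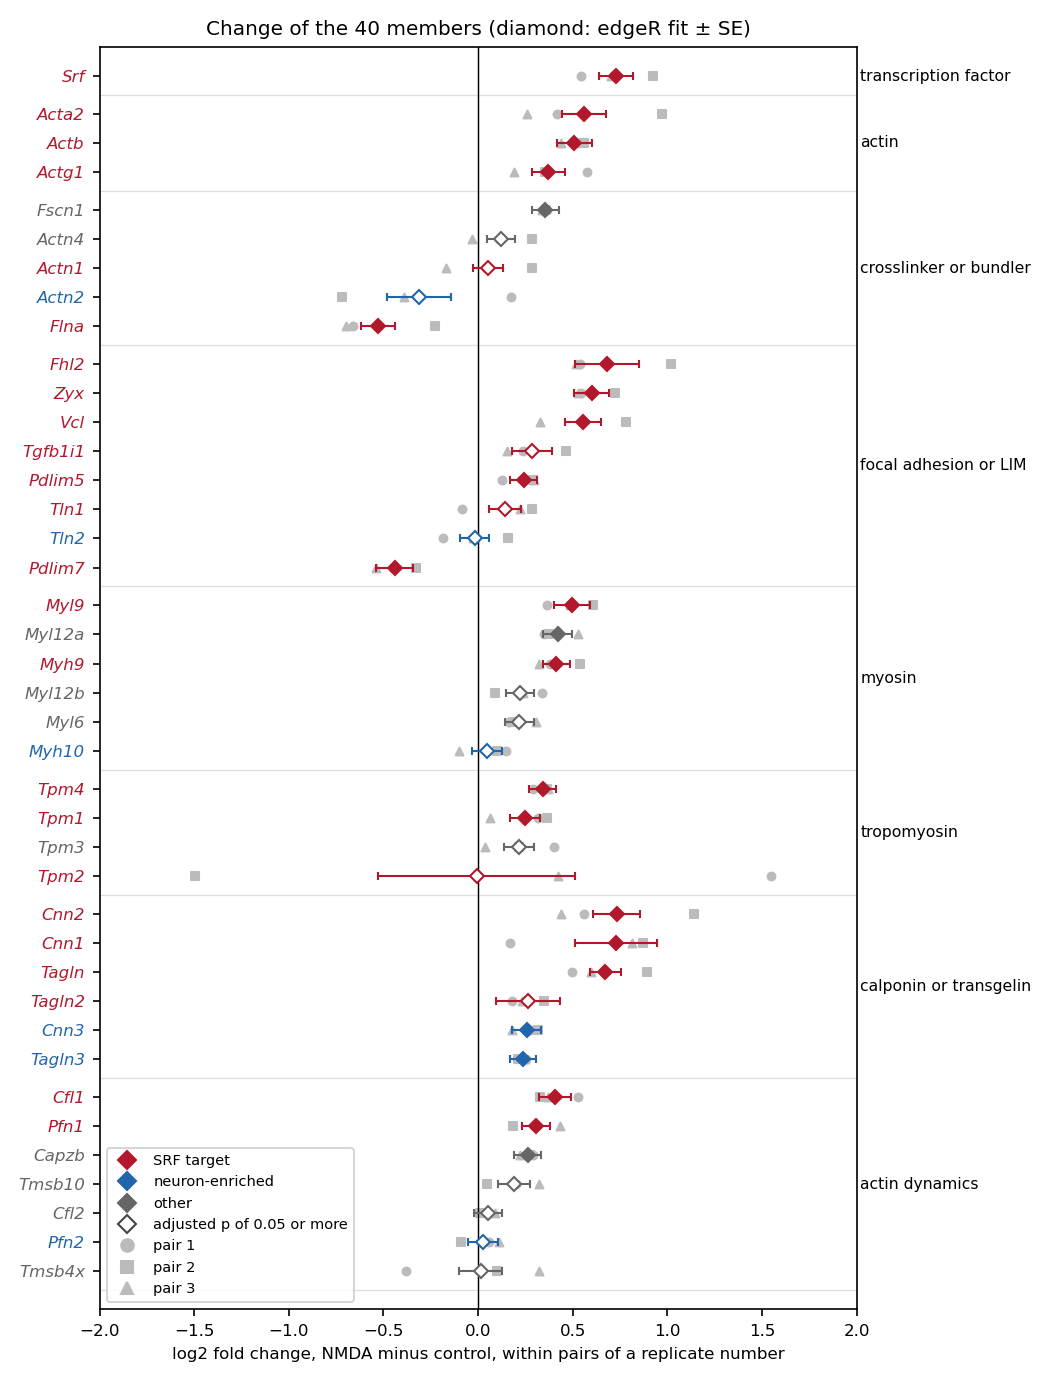
Log2 fold change of each of the 40 members within pairs of a replicate number (x axis), grouped by role. Diamonds are the edgeR estimates with the replicate block, bars their standard errors, filled diamonds an adjusted p under 0.05, and grey symbols the 3 single pairs; 22 filled diamonds lie to the right of 0 and 2, Flna and Pdlim7, to the left.

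Srf encodes the factor itself and, as the sequences above show, carries 2 CArG boxes in its own promoter. Its level was 24.5, 22.8 and 23.1 CPM (counts scaled to a common library size with TMM factors) in control replicates 1, 2 and 3, and 35.7, 43.4 and 37.7 CPM in NMDA replicates 1, 2 and 3. The groups did not overlap, and the control libraries were close together. The mean rose from 23.5 ± 0.901 to 38.9 ± 3.95 CPM (SD, n = 3 in each group). On the log2 scale this was a change of 0.73 ± 0.11 (SE; adjusted p = 0.016 by edgeR's quasi-likelihood test). Leaving out 1 library at a time kept the change between 0.65 and 0.80, but the call was lost without control replicate 1, 2 or 3 and without NMDA replicate 2 or 3 (adjusted p from 0.051 to 0.13). Within pairs the estimate was the same, 0.73 ± 0.09. Srf (ENSMUSG00000015605) lies on chromosome 17 of GRCm38 from 46548329 to 46556175.

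None of SRF's cofactors passed in either fit. The list held 6 of them in the table, of which 5 were tested, and Myocd, a cofactor of muscle, stayed out with almost no counts. Mrtfa was at 21.99, 21.7 and 21.8 CPM in control and 23.7, 18.9 and 20.4 CPM in NMDA replicates 1, 2 and 3, with overlapping groups. The log2 fold changes without the block were -0.06 ± 0.12 for Mrtfa, -0.19 ± 0.11 for Mrtfb, -0.21 ± 0.09 for Elk1, 0.30 ± 0.22 for Elk3 and 0.17 ± 0.13 for Elk4. By edgeR's p before adjustment, 1 of the 5 was under 0.05 without the block, where 13.7% of all genes were, and 4 were with it, where 28.7% were; neither DESeq2 nor limma-voom called any. Of the 11 immediate early genes that SRF serves with ternary complex factors, 8 were higher without the block, 11 within pairs and 11 by DESeq2 without the block. Over all genes with an adjusted p the shares called higher were 0.376%, 5.65% and 1.08%. The median log2 fold change of the 11 was 2.65 in the edgeR fit without the block. Fosb (6.68), Egr2 (3.30), Arc (2.65) and Ier2 (1.80) passed in both fits, and Egr4 (2.24), Egr3 (0.78) and Mcl1 (0.39) passed within pairs but not in the edgeR fit without the block. Also past the threshold in both fits, Fos stood at 5.13 ± 0.19, Junb at 3.24 ± 0.21, Nr4a1 at 2.91 ± 0.12 and Egr1 at 2.01 ± 0.13.

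The 3 actins were higher in NMDA libraries and rose within pairs, in a fit that called 5.65% of all genes tested higher. Actb, the cytoplasmic beta actin, was at 1437, 1583 and 1829 CPM in control and 2074, 2330 and 2477 CPM in NMDA replicates 1, 2 and 3. Actg1, the cytoplasmic gamma actin, was at 394, 454 and 531 CPM in control and 587, 580 and 606 CPM in NMDA libraries. For neither gene did the groups overlap, and the NMDA library of each replicate number stood above its control. The log2 fold change of Actb was 0.51 ± 0.13 (adjusted p = 0.16) without the block and 0.51 ± 0.09 (adjusted p = 0.00089) within pairs. That of Actg1 was 0.36 ± 0.12 (adjusted p = 0.23) and 0.37 ± 0.08 (adjusted p = 0.0059), and its paired call was lost without both libraries of replicate 2 (adjusted p = 0.063). Acta2, the smooth muscle alpha actin, was at 43.6, 59.8 and 54.2 CPM in control and 58.1, 117 and 64.9 CPM in NMDA replicates 1, 2 and 3. Here the groups overlapped and NMDA replicate 2 stood apart. Its change was 0.61 ± 0.26 (adjusted p = 0.37) without the block and 0.56 ± 0.12 (adjusted p = 0.0092) within pairs, with 0.42, 0.97 and 0.26 in the single pairs, and the paired call was lost without both libraries of replicate 1 (adjusted p = 0.095). Without NMDA replicate 2 the change of Acta2 was 0.23, and within pairs without both libraries of replicate 2 it was 0.34. Actb and Actg1 have processed copies elsewhere in the genome, and how reads shared with them were counted is not given in the sources used here. Actb (ENSMUSG00000029580) lies on chromosome 5 from 142903115 to 142906754.

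**Figure D2:**
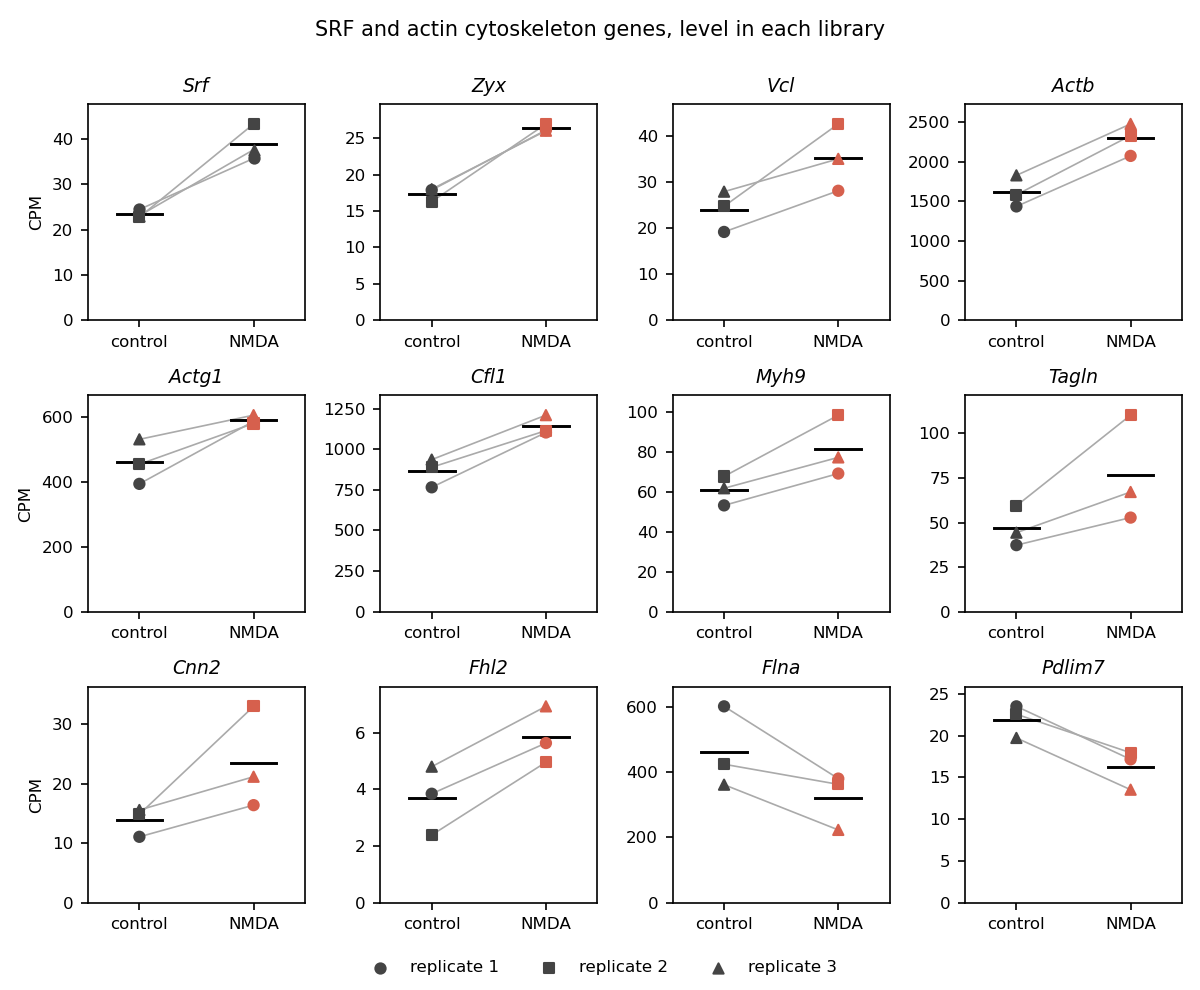
Level in CPM (y axes, each from 0) of 12 members in the 3 control and 3 NMDA libraries. Grey lines join libraries of the same replicate number and black bars are group means. Of the 12, only Tagln and Flna overlap between the groups, and the control libraries of Flna run from 361 to 601 CPM.

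Focal adhesion and LIM proteins link actin to integrins or shuttle between filaments and the nucleus. Of these 8 members 1 rose without the block, where 0.376% of all genes tested were called higher. In the paired fit 4 rose and 1 fell, beside 5.65% and 8.35% of all genes, and the share that fell was near the latter. Zyx encodes zyxin, a LIM protein of focal adhesions and stress fibres. It was at 17.9, 16.3 and 18.0 CPM in control and 26.1, 26.9 and 26.0 CPM in NMDA replicates 1, 2 and 3, with a wide gap between 2 tight groups. Its log2 fold change was 0.60 ± 0.10 (adjusted p = 0.041), and the call was lost without control replicate 1, 2 or 3 and without NMDA replicate 2 or 3, with changes of 0.56 to 0.63 over the 6 left-out fits. Vcl, which encodes vinculin, a tension-bearing adaptor, was at 19.2, 24.7 and 27.9 CPM in control and 28.1, 42.6 and 35.0 CPM in NMDA libraries. The groups were separated only narrowly, since the highest control and the lowest NMDA library nearly met. Its change was 0.56 ± 0.18 (adjusted p = 0.23) without the block and 0.55 ± 0.09 (adjusted p = 0.00057) within pairs. Fhl2, a LIM-only coregulator, was a low gene at 3.85, 2.39 and 4.80 CPM in control and 5.63, 4.96 and 6.93 CPM in NMDA libraries. It changed by 0.66 ± 0.26 (adjusted p = 0.31) and by 0.68 ± 0.17 (adjusted p = 0.010) within pairs, a call lost without both libraries of replicate 2 (adjusted p = 0.10). Without control replicate 2 the unpaired change of Fhl2 was 0.43.

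The 2 PDZ-LIM members went in opposite directions within pairs. Pdlim5, also known as ENH, was at 57.4, 77.3 and 78.5 CPM in control and 62.6, 94.6 and 96.5 CPM in NMDA replicates 1, 2 and 3. Replicate 1 was the lowest library in both groups, and the groups overlapped. Its change was 0.25 ± 0.18 (adjusted p = 0.57), and 0.24 ± 0.07 (adjusted p = 0.029) within pairs, a call lost without both libraries of replicate 2 (adjusted p = 0.27) or replicate 3 (adjusted p = 0.13). The unpaired change of Pdlim5 was 0.12 without control replicate 1, and 0.44, 0.17 and 0.16 without NMDA replicate 1, 2 and 3. Pdlim7, also known as enigma, was at 23.5, 22.6 and 19.7 CPM in control and 17.2, 18.0 and 13.5 CPM in NMDA libraries. Its 3 NMDA libraries all lay below its 3 controls, which held for no other member. Its change was -0.44 ± 0.14 (adjusted p = 0.23) without the block and -0.44 ± 0.10 (adjusted p = 0.0047) within pairs. Tgfb1i1, which encodes the LIM protein Hic-5, did not pass in either fit at 0.29 ± 0.12, although its groups did not overlap (13.9 ± 1.29 against 16.9 ± 1.08 CPM). The talins, which activate integrins, did not pass either.

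Among the crosslinkers and bundlers, Fscn1 rose and Flna fell within pairs, and the 3 alpha-actinins did not pass. Flna encodes filamin A, which joins filaments into networks and ties them to membrane receptors. It was at 601, 424 and 361 CPM in control and 380, 362 and 223 CPM in NMDA replicates 1, 2 and 3. The groups overlapped, since control replicate 3 (361 CPM) lay below NMDA replicates 1 and 2 (380 and 362 CPM). In both groups replicate 1 was the highest library and replicate 3 the lowest. Its change was -0.52 ± 0.24 (adjusted p = 0.40) without the block and -0.53 ± 0.09 (adjusted p = 0.00071) within pairs, with -0.66, -0.23 and -0.70 in pairs 1, 2 and 3. The paired fall kept its call without both libraries of replicate 1, 2 or 3, at -0.45, -0.68 and -0.43. The change of Flna without the block was -0.29 without control replicate 1 and -0.30 without NMDA replicate 3. Flna is among the known SRF targets and, with Pdlim7, was 1 of the 2 that moved against the rest of them. It lies on the X chromosome from 74223461 to 74249820 (ENSMUSG00000031328). Fscn1, the fascin that bundles filaments in filopodia and growth cones, was at 183, 194 and 216 CPM in control and 236, 249 and 273 CPM in NMDA libraries. The groups did not overlap, and the single pairs were 0.37, 0.36 and 0.34. Its change was 0.36 ± 0.10 (adjusted p = 0.18) without the block and 0.36 ± 0.07 (adjusted p = 0.0025) within pairs, a call lost without both libraries of replicate 2 (adjusted p = 0.064). The alpha-actinins were at 0.06 ± 0.10 for Actn1, -0.30 ± 0.23 for Actn2 and 0.12 ± 0.10 for Actn4 on the log2 scale without the block.

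Of the 6 myosin genes 3 rose within pairs, beside 5.65% of all genes tested, and none passed without the block. Myh9, the heavy chain of non-muscle myosin IIA, was at 53.2, 67.7 and 61.8 CPM in control and 69.1, 98.4 and 77.2 CPM in NMDA replicates 1, 2 and 3. Myl9, a regulatory light chain, was at 14.7, 19.5 and 17.9 CPM in control and 19.0, 29.7 and 25.2 CPM in NMDA libraries. Myl12a, another regulatory light chain, was at 33.6, 50.5 and 36.9 CPM in control and 42.9, 65.6 and 53.3 CPM in NMDA libraries. In all 3 genes replicate 2 was the highest library of both groups, and Myl9 and Myl12a overlapped between the groups while Myh9 did not. The changes without the block and within pairs were 0.42 ± 0.14 (adjusted p = 0.24) and 0.41 ± 0.07 (adjusted p = 0.00075) for Myh9. They were 0.51 ± 0.17 (adjusted p = 0.25) and 0.49 ± 0.10 (adjusted p = 0.0016) for Myl9, and 0.42 ± 0.18 (adjusted p = 0.36) and 0.42 ± 0.08 (adjusted p = 0.00099) for Myl12a. Without NMDA replicate 2 the unpaired changes of Myh9 and Myl12a were 0.27 and 0.26. The essential light chain Myl6 (0.22 ± 0.09) and the regulatory chain Myl12b (0.22 ± 0.08) missed the threshold, also within pairs (adjusted p = 0.058 and 0.057), though neither overlapped between the groups. Exons annotated to Myl12a overlap those of a further gene model named Myl12b, and the 2 light chains are near-identical paralogs, so the split of reads between them is uncertain. Exons of tested genes on the opposite strand also overlap Cfl1 (Snx32), Myl12a (Myom1), Tagln (Pcsk7), Tln1 (Creb3) and Vcl (Ap3m1), and without a stated strand setting their reads cannot be told apart.

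Tropomyosins wind along filaments and set which myosins and severing factors can reach them. Of the 4 members 2 rose within pairs, beside 5.65% of all genes tested. Tpm1 was at 156, 181 and 176 CPM in control and 194, 233 and 183 CPM in NMDA replicates 1, 2 and 3, and Tpm4 at 63.9, 86.3 and 65.0 CPM in control and 78.1, 111 and 84.0 CPM in NMDA libraries. The groups were separated for Tpm1 and overlapped for Tpm4, whose pairs were more even (0.29, 0.36 and 0.37 against 0.32, 0.36 and 0.06). The changes were 0.25 ± 0.11 (adjusted p = 0.35) without the block and 0.25 ± 0.08 (adjusted p = 0.039) within pairs for Tpm1, and 0.34 ± 0.16 (adjusted p = 0.37) and 0.34 ± 0.07 (adjusted p = 0.0025) for Tpm4. Without both libraries of replicate 2 the paired call of Tpm1 was lost (adjusted p = 0.42). Without NMDA replicate 2 the unpaired changes of Tpm1 and Tpm4 were 0.14 and 0.18. Tpm3 was at 0.22 ± 0.09 and did not pass in either fit, with no overlap between the groups (210 ± 11.6 against 244 ± 17.5 CPM). Tpm2, a muscle tropomyosin, had counts of only 5 to 26 per library, and its change of -0.04 ± 0.59 was not measurable at this depth.

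Calponins and transgelins are related filament-binding proteins. Of these 6 members 5 rose within pairs, beside 5.65% of all genes tested, and none without the block, beside 0.376%. Tagln, or SM22, a marker of smooth muscle, was at 37.3, 59.4 and 44.3 CPM in control and 52.8, 110 and 67.1 CPM in NMDA replicates 1, 2 and 3. Cnn2 was at 11.1, 14.9 and 15.6 CPM in control and 16.4, 33.1 and 21.2 CPM in NMDA libraries. Cnn1, the smooth muscle calponin, was at 1.30, 2.84 and 1.95 CPM in control and 1.48, 5.29 and 3.52 CPM in NMDA libraries. NMDA replicate 2 was the highest library in all 3 genes, as it was for Acta2, and of the 3 Cnn2 did not overlap between the groups. The paired change of Tagln was 0.67 ± 0.08 (adjusted p = 1.2e-05, and 0.33 without the block), that of Cnn2 0.73 ± 0.12 (0.00084 and 0.24) and that of Cnn1 0.73 ± 0.22 (0.030 and 0.47). Without both libraries of replicate 2 these were 0.55 for Tagln and 0.50 for Cnn2, which kept their calls, and 0.60 for Cnn1, which lost it (adjusted p = 0.28). Cnn1 also lost its call without those of replicate 3 (adjusted p = 0.13). The changes without the block, 0.71 for Tagln, 0.77 for Cnn2 and 0.77 for Cnn1, were 0.35, 0.44 and 0.32 without NMDA replicate 2.

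The remaining calponins and transgelins moved less. Tagln3, the neuronal transgelin, was at 61.2, 70.0 and 71.0 CPM in control and 73.0, 81.0 and 84.4 CPM in NMDA replicates 1, 2 and 3. Cnn3, the acidic calponin found in brain, was at 345, 454 and 451 CPM in control and 417, 565 and 511 CPM in NMDA libraries. Tagln3 did not overlap between the groups and Cnn3 did. Their paired changes were 0.24 ± 0.07 (adjusted p = 0.027, and 0.32 without the block) and 0.26 ± 0.08 (adjusted p = 0.031, and 0.45 without it). Without both libraries of replicate 2 both calls were lost (adjusted p = 0.16 and 0.36), and without those of replicate 3 that of Tagln3 (adjusted p = 0.086). The unpaired change of Cnn3 was 0.14 without control replicate 1 and 0.16 without NMDA replicate 2. Tagln2 was at 3.36, 3.61 and 4.38 CPM in control and 3.82, 4.63 and 5.17 CPM in NMDA libraries and did not pass in either fit (0.27 ± 0.21).

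Of the 7 genes for actin turnover 3 rose within pairs, beside 5.65% of all genes tested. Cfl1, the cofilin that severs filaments in non-muscle cells, was at 765, 889 and 936 CPM in control and 1103, 1114 and 1210 CPM in NMDA replicates 1, 2 and 3. Pfn1, the general profilin that feeds monomers to growing ends, was at 112, 127 and 117 CPM in control and 138, 144 and 158 CPM in NMDA libraries. Capzb, a subunit of the barbed-end capping protein, was at 160, 173 and 184 CPM in control and 196, 210 and 214 CPM in NMDA libraries. None of the 3 overlapped between the groups. The paired changes were 0.41 ± 0.08 for Cfl1 (adjusted p = 0.0028, and 0.18 without the block), 0.31 ± 0.07 for Pfn1 (0.0090 and 0.20) and 0.26 ± 0.07 for Capzb (0.020 and 0.25). Without both libraries of replicate 2 Capzb lost its call (adjusted p = 0.23), and without those of replicate 3 Pfn1 did (adjusted p = 0.063). The muscle cofilin Cfl2 was at 0.05 ± 0.09 and the thymosins, which sequester actin monomers, were at -0.01 ± 0.16 (Tmsb4x) and 0.18 ± 0.12 (Tmsb10), none of them past the threshold in either fit. Tmsb4x had the opposite sign in pair 1 (-0.38) from pairs 2 and 3 (0.10 and 0.32).

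The members were then divided into 24 known SRF targets, 6 isoforms taken as enriched in neurons (Actn2, Tln2, Myh10, Tagln3, Cnn3 and Pfn2) and 10 of neither kind. These labels, like the members, were chosen with earlier results of these data known, so the division is a description. Cell types were not separated here, so enrichment in neurons was not checked. Within pairs 17 of the 24 targets rose and 2 fell, 2 of the 6 neuron-enriched isoforms rose, and 3 of the other 10 rose. The same fit called 5.65% of all genes tested higher and 8.35% lower, and the share of targets that fell was near the latter. The median log2 fold change without the block was 0.38 for the targets, 0.04 for the neuron-enriched isoforms and 0.22 for the rest, and in pairs 1, 2 and 3 it was 0.37, 0.41 and 0.35 for the targets and 0.16, 0.13 and 0.04 for the neuron-enriched isoforms. No test was made of the difference between these lists. The targets that did not pass in either fit were Actn1, Tln1, Tpm2, Tagln2 and Tgfb1i1.

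Isoform partners were also compared inside each library, as a ratio of CPM per kb of exon, in which the scaling of the library cancels. The ratio of Pfn1 to Pfn2, the profilin enriched in brain, was 0.258, 0.291 and 0.287 in control and 0.304, 0.351 and 0.359 in NMDA replicates 1, 2 and 3. The ratio of Myh9 to Myh10, the heavy chain of myosin IIB, was 0.149, 0.169 and 0.145 in control and 0.175, 0.229 and 0.194 in NMDA libraries. That of Cnn2 to Cnn3 was 0.0397, 0.0405 and 0.0427 in control and 0.0486, 0.0722 and 0.0512 in NMDA libraries. In these 3 pairs every NMDA library had a higher ratio than every control, while the neuron-enriched partner remained the more abundant in all 6 libraries. Pfn2 was at 639, 643 and 601 CPM in control and 665, 605 and 649 CPM in NMDA libraries, and Myh10 at 288, 324 and 346 against 320, 347 and 322 CPM, so both overlapped between the groups.

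The other pairs overlapped between the groups. The ratio of Tln1 to Tln2 averaged 0.694 ± 0.0814 in control and 0.775 ± 0.0888 in NMDA libraries and was higher within each of the 3 pairs. Tln1 was at 40.9, 37.9 and 36.3 CPM in control and 38.6, 46.3 and 42.4 CPM in NMDA replicates 1, 2 and 3, and Tln2 at 120, 90.2 and 103 against 106, 101 and 102 CPM. The ratio of Tagln2 to Tagln3 was 0.0334 ± 0.00306 in control and 0.0339 ± 0.00266 in NMDA libraries, a difference smaller than the spread. That of Actn1 to Actn2 was 9.10, 8.70 and 8.07 in control and 8.29, 17.7 and 9.46 in NMDA libraries, where NMDA replicate 2 stood apart. In that library Actn1 was at 93.6 CPM, against 74.7, 76.8 and 86.9 CPM in control and 77.0 and 77.2 CPM in NMDA replicates 1 and 3. Actn2 was at 3.64 CPM there, against 5.63, 6.06 and 7.39 CPM in control and 6.37 and 5.60 CPM in the other NMDA libraries. Between the cytoplasmic actins the ratio of Actb to Actg1 was 3.62, 3.46 and 3.42 in control and 3.51, 3.98 and 4.06 in NMDA libraries, lower within pair 1 and higher within pairs 2 and 3.

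**Figure D3:**
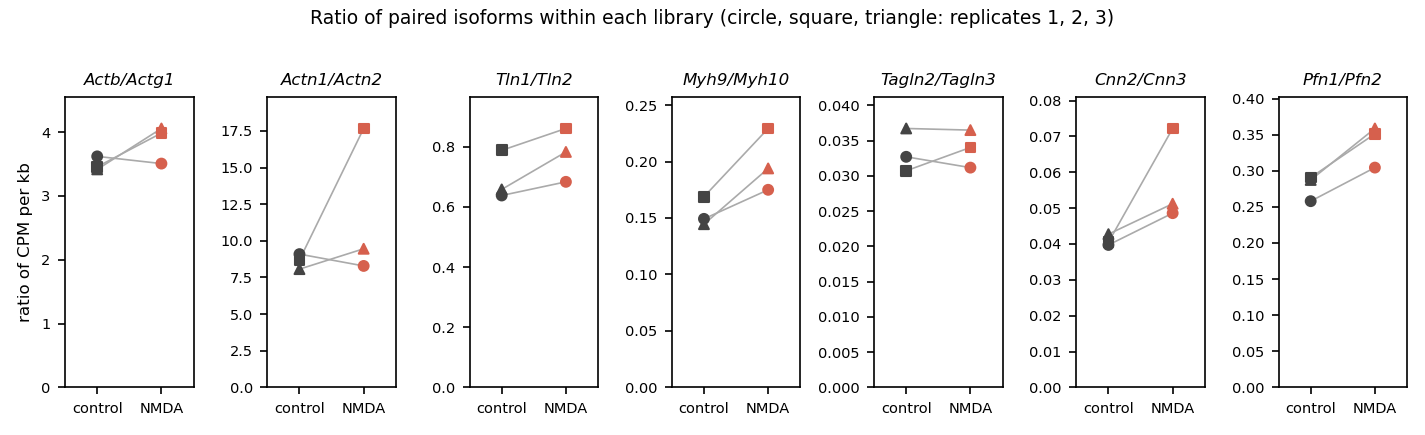
Ratio of 2 related isoforms within each library, as CPM per kb of exon (y axes, each from 0), in control and NMDA libraries. Grey lines join libraries of the same replicate number; the groups are separated for Myh9/Myh10, Cnn2/Cnn3 and Pfn1/Pfn2 and overlap for the other 4 ratios.

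Levels of different genes were ordered per kb of annotated exon, a length that sums all isoforms and so understates genes with long alternative exons. In control libraries the highest level was that of Tmsb4x, at 1162 CPM per kb, followed by Tmsb10 (749), Actb (603), Cfl1 (304), Pfn2 (177), Actg1 (173) and Cnn3 (137). Srf ranked 26 of 40 at 8.11 CPM per kb. The smooth muscle genes spanned a wide range, from Acta2 (23.9) and Tagln (23.6) to Cnn1 (0.742) and Tpm2 (0.257), the lowest members. The 3 actins together took 1874, 2098 and 2414 CPM in control and 2719, 3028 and 3148 CPM in NMDA replicates 1, 2 and 3, and all 3 NMDA sums lay above the controls.

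**Figure D4:**
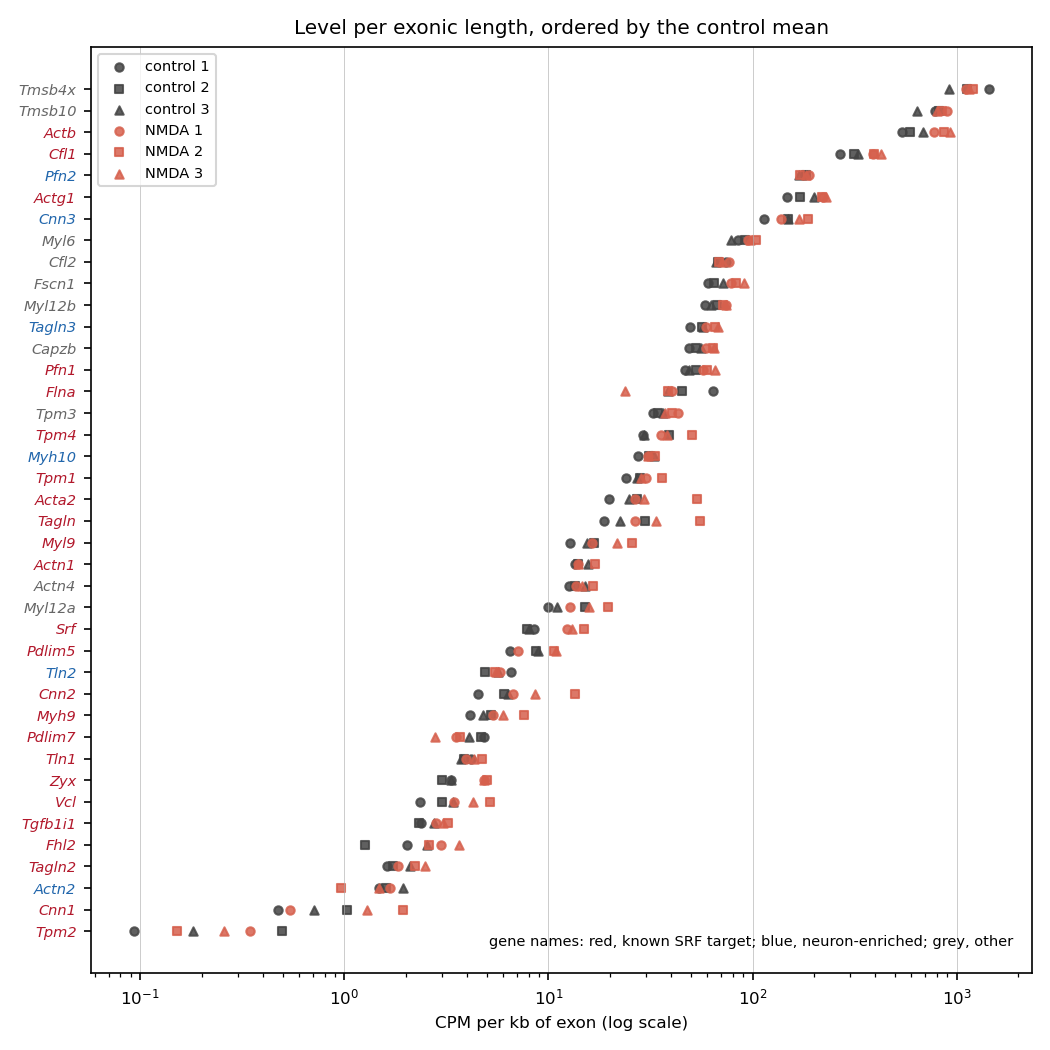
Level of each member per kb of annotated exon (x axis, CPM per kb, log scale) in the 3 control libraries (dark) and 3 NMDA libraries (red), ordered by the control mean. Control means span from 0.257 CPM per kb for Tpm2 to 1162 for Tmsb4x.

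The members with a consensus CArG box in the sequences shown above were set beside those without. Within pairs 6 of the 7 with a match rose and none fell, the exception being Myl6, with a median log2 fold change of 0.55. Of the 29 members with a promoter and no match 14 rose and 2 fell, with a median of 0.24. Outside the members, 168 tested genes had a match, of which 15 (8.93%) were higher and 8 (4.76%) lower within pairs, with a median of 0.02. For the 10906 tested genes with a promoter and no match these shares were 5.68% and 8.52%, with a median of -0.00308. Most genes with a match in this window therefore did not pass in either direction. These shares were not tested.

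Other genes of the actin system showed smaller medians than the members. Members and lists were chosen with earlier results of these data known, so nothing is read from this difference. For the counts below, the paired fit called 5.65% of all genes tested higher and 8.35% lower. Of 19 genes for the Arp2/3 complex and other nucleation factors, which start new filaments, none passed without the block and 2 rose within pairs, Arpc2 (0.25 ± 0.08) and Wasf1 (0.29 ± 0.08); the median was 0.09 without the block. Actr3 (0.19 ± 0.09) and Arpc3 (0.14 ± 0.08) did not pass. Without the block 1 of the 19 had a p under 0.05 before adjustment, no larger a share than the 13.7% of all genes, and neither DESeq2 nor limma-voom called any. Of 30 other actin-binding genes the fit without the block called none, and the paired fit called 4 higher and 2 lower (median 0.11 without the block). Palld (0.59 ± 0.13), Ezr (0.41 ± 0.08), Marcksl1 (0.37 ± 0.08) and Msn (0.27) rose, and Add2, an adducin of the spectrin skeleton (-0.51 ± 0.09), and Tmod2, the neuronal tropomodulin (-0.26 ± 0.08), fell. Before adjustment 5 of the 30 had a p under 0.05 without the block, a share near the 13.7% of all genes, while DESeq2 called 1 higher and 1 lower and limma-voom none.

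Several members are markers of smooth muscle, mural cells or fibroblasts, so genes that mark other cells were read in the same libraries. The cultures expressed neuron markers strongly, with a summed level of 12 genes of 4595 to 5162 CPM in control and 4318 to 4993 CPM in NMDA libraries, Map2 being the highest. Of these, 2 rose within pairs, Rbfox3 (0.40 ± 0.08) and Neurod2 (0.27 ± 0.08), in a fit that called 5.65% of all genes tested higher. The 13 fibroblast and mural markers outside the members summed to 39.97 to 63.8 CPM in control and 43.1 to 67.8 CPM in NMDA libraries. Dcn was the highest, none was at 0 in all 6 libraries, 4 stayed under 1 CPM throughout, 7 were tested, and 1, Notch3, rose within pairs (0.41 ± 0.12). In NMDA replicate 2, where Acta2, Tagln and Cnn2 were highest, this sum, most of it Dcn and the mural markers Pdgfrb and Notch3, was 43.1 CPM. Pdgfrb (14.8 CPM) and Rgs5 (1.49 CPM) were highest in that library, while Dcn, Lum, Col3a1 and Vtn were lowest there. The median log2 change of the 7 tested markers was -0.07, 0.36 and 0.0135 in pairs 1, 2 and 3. Their part in the members' changes was not tested.

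Most astrocyte markers rose within pairs as many of the members did, while most progenitor and cycling markers did not pass. Within pairs 5.65% of all genes tested were higher and 8.35% lower. The 10 astrocyte markers summed to 2196, 2257 and 2864 CPM in control and 2368, 2934 and 3606 CPM in NMDA replicates 1, 2 and 3; none was at 0 in all libraries, none passed without the block and 7 rose within pairs, namely Slc1a3, the highest of them (0.34 ± 0.09), Gja1, Sox9, Aldh1l1, Gfap, Aqp4 and Aldoc. Their mean log2 changes in pairs 1, 2 and 3 were 0.16, 0.38 and 0.30, while the members' means were 0.27, 0.30 and 0.23. The 8 progenitor and cycling markers summed to 552 to 737 CPM in control and 583 to 856 CPM in NMDA libraries, none was at 0, and 2 of the 8, Nes (0.37 ± 0.08) and Sox2 (0.22 ± 0.07), rose within pairs. The list's median was 0.06, and Hes5 was at -0.69 ± 0.32 within pairs without passing. Nes was at 163, 225 and 186 CPM in control and 188, 319 and 247 CPM in NMDA libraries, highest in NMDA replicate 2 as Acta2, Tagln and Cnn2 were. The part of astrocytes and progenitors in the members' changes was not tested either. Oligodendrocyte lineage markers, with Pdgfra the highest, summed to 541 to 1061 CPM in control and 658 to 1031 CPM in NMDA libraries. Of these, 1 of 9, Mog, fell within pairs (-0.65 ± 0.21), a share near the 8.35% of all genes. Markers of microglia (7 genes with Aif1 the highest, 3.38 to 4.84 CPM in control and 3.82 to 4.37 CPM in NMDA libraries) and endothelium (6 genes, 12.3 to 18.0 and 14.02 to 23.9 CPM, most of it Kdr) were low, with the endothelial Cldn5 at 0 in all 6 libraries, and none of them passed.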

How the data were processed

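The authors deposited whole-number counts of reads for each gene and library, with no normalization. Trimmomatic, TopHat, HTSeq, mm10 and GRCm38.p6 are named, with no order, per the submitters' processing notes. For tool versions, annotation release and strand setting the values were not given in the sources used here, so reads of genes on opposite strands may not be separated. Per the labels' protocols, libraries were made with a stranded mRNA kit and single-end adapters.

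Counts were tested with edgeR 4.0.16 (R 4.3.3) after a low-count filter (minimum count 10, minimum total 15), with TMM scaling, robust quasi-likelihood F tests and Benjamini-Hochberg adjustment over 14642 genes at 0.05. Same-numbered libraries shared deviations from their group means (correlations of 0.54, 0.38 and 0.49 for numbers 1, 2 and 3), so a fit with the number as a block stands beside the members whose call differs under it; this pairing comes from the data, not the labels. Same-group libraries differed beyond sampling noise. Positions and exonic lengths are from GENCODE M21 (GRCm38), promoters from RefSeq. Alternatives used DESeq2 1.42.0, limma-voom (limma 3.58.1), other scalings and filters, and left-out libraries. The code was tested on simulated counts. Members and lists were chosen with earlier results of these data known. Values in every library are given for Srf, Actb, Actg1, members past the threshold in either fit and the isoform pairs; of the other lists, the smallest p-values and those past the threshold are named. A further pathway list that was fitted is not reported here.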

Additional observations from a re-analysis of the deposited data

How the results depend on the processing

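Without the block, 2 members were called higher and 0 lower, counts that also held with DESeq2 size factors, upper quartile scaling, limma-voom and a filter of 1 CPM; with no low-count filter they were 3 and 0. DESeq2 called 5 higher. The replicate block gave 22 higher and 2 lower, and 23 and 2 with GC and length offsets. Refits chosen after seeing the data followed. Without both libraries of replicate 1, 2 or 3, the blocked fit called 23, 13 or 19 higher and 3, 2 or 2 lower, and DESeq2 with the block 17 and 2. Calls gained in the blocked edgeR fit without replicate 1 were Actn2 (-0.54, adjusted p = 0.032), Tln1 (0.27, adjusted p = 0.027) and Myl6 (0.26, adjusted p = 0.015). Tpm3 gained a call without replicate 3 (0.32, adjusted p = 0.014). Leaving out each library gave 0 to 2 higher and 0 lower, a median over the members of 0.21 to 0.35, over the SRF targets of 0.29 to 0.46 and over the neuron-enriched isoforms of 0.04 to 0.06. In the blocked fit without replicate 1 or 3 the members' median was 0.27 or 0.30, and without replicate 3 the targets' median was 0.46.

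Signs turned in 6 members, none of which passed without or with the block on all 6 libraries. With limma-voom Tpm2 was at 0.20 and Tmsb4x at 0.0113, and with the block Tmsb4x was at 0.0130 (0.0231 with DESeq2). Tln2 was at 0.0742 with the block and offsets. Leaving out each library in turn, Tln2 ran from -0.12 to 0.0845, Tmsb4x from -0.15 to 0.17, Tpm2 from -0.44 to 0.84, Myh10 from -0.0236 to 0.11, Pfn2 from -0.00062 to 0.0677 and Actn1 from -0.0430 to 0.13. In blocked fits without both libraries of a replicate Tln2 was at 0.0758 (replicate 1) and 0.0011 (replicate 3), Tmsb4x at 0.22 (replicate 1), Actn1 at -0.0645 and Tpm2 at 1.097 (replicate 2), and Pfn2 at -0.00082 (replicate 3). The cause of these differences was not tested.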
